A study of Mus musculus with 12 samples.

Results

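The genes described here are 33 genes of the eye lens, 16 crystallins and 17 other lens genes, measured in whole mouse retinas by RNA-seq. They were taken by symbol from the 36131 genes of the deposited count table, each symbol pointed to 1 row, and all 33 were found. The table covers retinas of 12 C57BL/6J wildtype mice at P18, 4 mice in each of 3 groups and 1 library from each mouse, in a study of oxygen-induced retinopathy. RA-PBS mice (animals 1 to 4) stayed in room air. O2-PBS mice (animals 5 to 8) and O2-IC100 mice (animals 9 to 12) were placed in 75% O2 from P7 with their nursing mothers and came back to room air at P12. All mice were injected intraperitoneally at P12, P14 and P16, with PBS as placebo in the first 2 groups and in the last one with 10 µg/g of IC100, which is an antibody that binds ASC, the adaptor protein of inflammasomes.

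The lens is a clear tissue that touches the vitreous in front of the retina. Its fiber cells fill with crystallins, lose their nuclei and keep a membrane rich in channel and junction proteins, while a single layer of epithelial cells covers the front of the fibers. The alpha crystallins are small heat shock proteins that act as chaperones, and the beta and gamma crystallins are structural proteins of 1 superfamily. Some members are also made outside the lens, among them the stress-inducible alphaB-crystallin and the transcription factor c-Maf.

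The crystallin genes lie in tandem or singly in the genome. On the GRCm38.p6 build, 8 of the 33 members are on chromosome 1, where Cryga to Crygf lie, and 6 are on chromosome 5. The RefSeq promoter set of that build holds 30 of the 33 members, 15 of them crystallins. The 100 bases before the start of these 6 gamma crystallins are shown as a description. They lie outside the transcripts and do not bear on how reads were assigned. They are at chr1:65103364-65103463 for Cryga, chr1:65082291-65082390 for Crygb, chr1:65073533-65073632 for Crygc, chr1:65063441-65063540 for Crygd, chr1:65051164-65051263 for Cryge, chr1:65926422-65926521 for Crygf. Crygf is on the plus strand and the others are on the minus strand. Capitals mark the letters TTTGTG and TATATA, the runs of at least 6 letters that all 6 windows hold on this strand.
Cryga: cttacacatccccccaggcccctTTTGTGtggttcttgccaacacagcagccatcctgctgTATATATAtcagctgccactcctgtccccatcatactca
Crygb: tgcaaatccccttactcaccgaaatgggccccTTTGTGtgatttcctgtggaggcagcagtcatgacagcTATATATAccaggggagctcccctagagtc
Crygc: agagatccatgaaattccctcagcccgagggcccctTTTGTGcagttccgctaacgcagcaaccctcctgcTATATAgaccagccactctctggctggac
Crygd: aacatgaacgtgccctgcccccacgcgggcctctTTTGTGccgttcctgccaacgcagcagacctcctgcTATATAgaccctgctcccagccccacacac
Cryge: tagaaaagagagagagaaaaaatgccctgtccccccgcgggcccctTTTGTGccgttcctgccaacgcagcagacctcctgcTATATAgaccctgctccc
Crygf: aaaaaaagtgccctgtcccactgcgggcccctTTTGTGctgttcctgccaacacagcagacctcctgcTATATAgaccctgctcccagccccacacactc
The run TTTGTG stood before TATATA in each of the 6. Over the 56 bases that end with TATATA, Cryge and Crygd were identical at 96.4% of positions, Cryge and Crygf at 92.9%, and Crygd and Crygf at 89.3%. Crygc was identical to these 3 at 62.5 to 67.9% of positions, and every other pair, those with Cryga or Crygb, at 30.4 to 44.6%. Bases were compared position by position with no gaps allowed. Cryga and Crygb hold the longer run TATATATA, and the compared bases ended at its last TATATA in Cryga and its first in Crygb. The low values of their pairs depend on this placing and do not measure how alike the sequences are when aligned. Searched on both strands of the 250 bases before the start, TATATA, which can overlap itself, was found in 8 of the 15 crystallin promoters and in 5.25% of all 32851 promoters of the set, and TTTGTG in 8 of 15 and in 15.6% of all. Both runs were picked because the 6 windows hold them, so 6 of each 8 were fixed by that choice. Outside the 6, each was found in 2 of 9 crystallin promoters, TATATA in Crygn and Cryaa and TTTGTG in Crybb1 and Crybb3. TGCTGA, the core of the site that Maf proteins bind, was found in 10 of 15 crystallin promoters and in 16.1% of all. TATAAA was found in 3 of 15 and in 12.4% of all, and GAANNTTC, the core of a heat shock element, in 0 of 15 and in 6.69% of all.

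Total counts per retina ranged from 14907143 to 24438082. A floor of 3 counts corresponded to 0.123 to 0.201 CPM (counts per 1000000). The 33 genes took 61.4% of the counts of O2-IC100 animal 10 (95% Wilson interval 61.37 to 61.41%). They took 4.74% in RA-PBS animal 3 (4.73 to 4.75%), 1.52% in animal 4 (1.516 to 1.527%) and 1.35% in animal 2 (1.341 to 1.351%). In the other 8 libraries they took 0.0382 to 0.0583%. Intervals and floors of this kind cover counting error only. Animals 2, 3, 4 and 10, named in the choice of genes as holding lens RNA, are called the lens-rich libraries below, and animals 1, 5, 7, 8, 9, 11 and 12, named there as free of it, the lens-poor libraries. These sets follow the lens genes themselves, so they are described and not tested against each other. O2-PBS animal 6 was in neither set.

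**Figure D1:**
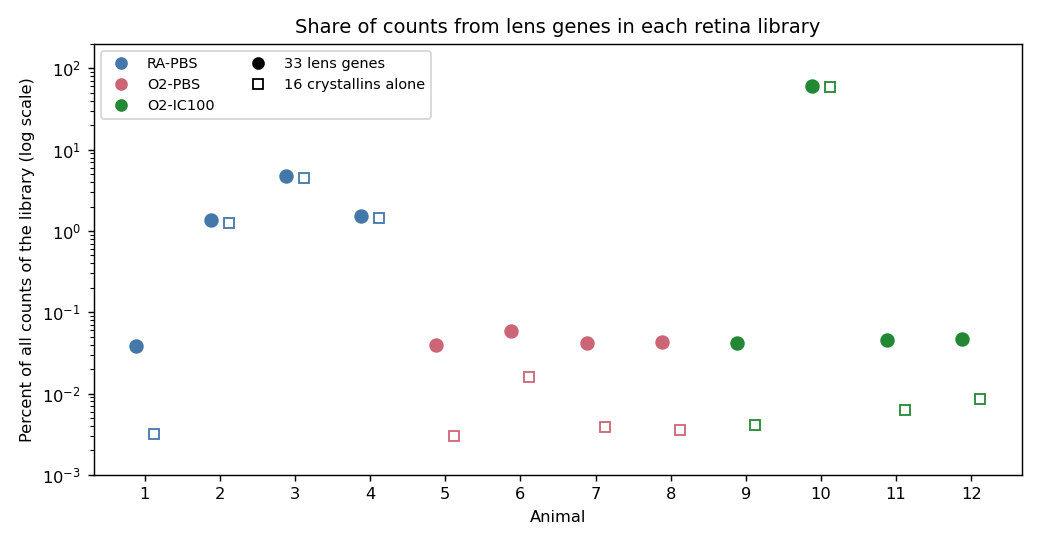
Percent of all counts of each library (log scale) taken by the 33 lens genes (circles) and by the 16 crystallins alone (squares), by animal and group, with 95% Wilson intervals that are smaller than the symbols. Animal 10 stands at 61.4%, animals 2, 3 and 4 between 1.35 and 4.74%, and the other 8 libraries at 0.0583% or below.

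Other tissues were checked in the same libraries. Rod photoreceptor genes (10 markers) took 0.345% of the counts of animal 10 and 4.155 to 5.155% in the other 11 libraries. Genes of the retinal pigment epithelium (6 markers) took 0.198% in animal 10, 0.0259 to 0.0308% in animals 2, 3 and 4, and 0.00507 to 0.0161% in the lens-poor libraries. Markers of pigment cells (5 genes) took 0.150% in animal 10 and 0.00309 to 0.0113% in the others. Markers of iris, ciliary body and drainage tissue (6 genes) took 0.0209% in animal 10 and 0.00247 to 0.00856% in the others. Of this list, Acta2 had 4150 counts in animal 10, and 3 of the 6 genes were highest there on the normalized scale used below. Müller glia markers (6 genes) took 0.0668% in animal 10 and 0.225 to 0.415% in the others. Of these, Rlbp1 was instead highest in animal 10 on that scale. Cornea markers (7 genes) summed to 0.00257% of the counts of animal 6, with 262 counts from Krt5, and to 7.29e-05 to 0.00109% elsewhere. Skeletal muscle markers (6 genes) summed to 0.00343% in animal 6 and to 0.00108 to 0.00153% elsewhere. On the normalized scale used below, 5 of the 7 cornea genes and 4 of the 6 muscle genes were instead highest in animal 10, and the other 2 of each list in animal 6. A list of 12 other lens genes that are no members took 0.502% in animal 10 and 0.0863 to 0.148% elsewhere. On the normalized scale, 11 of the 12 had their highest level in animal 10, where a scaling factor of 0.324 raises levels. The share of all genes highest there was not counted, and Jag1 was at 167 normalized CPM against 164 in animal 12. The part of these tissues in the results below was not tested. Animal 10 had at least 1 count in 18272 genes and animal 1 in 17603, against 19792 to 21048 in the others.

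All 33 members were highest in animal 10 and second highest in animal 3. Levels below are normalized CPM, which use the library size after TMM scaling, with a scaling factor of 0.324 in animal 10 and 1.07 to 1.15 in the others. In 32 of the 33 members the 4 lens-rich libraries all stood above the 7 lens-poor ones. These sets were chosen on the same genes, which largely fixes this count, and the share of all genes so separated was not counted. The exception was Hsf4, at 5.11 in animal 4 and 5.33 in animal 1. In 31 members the lens-rich libraries stood above animal 6 as well. In bulk RNA, a larger share of lens cells and more RNA per lens cell cannot be told apart.

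**Figure D2:**
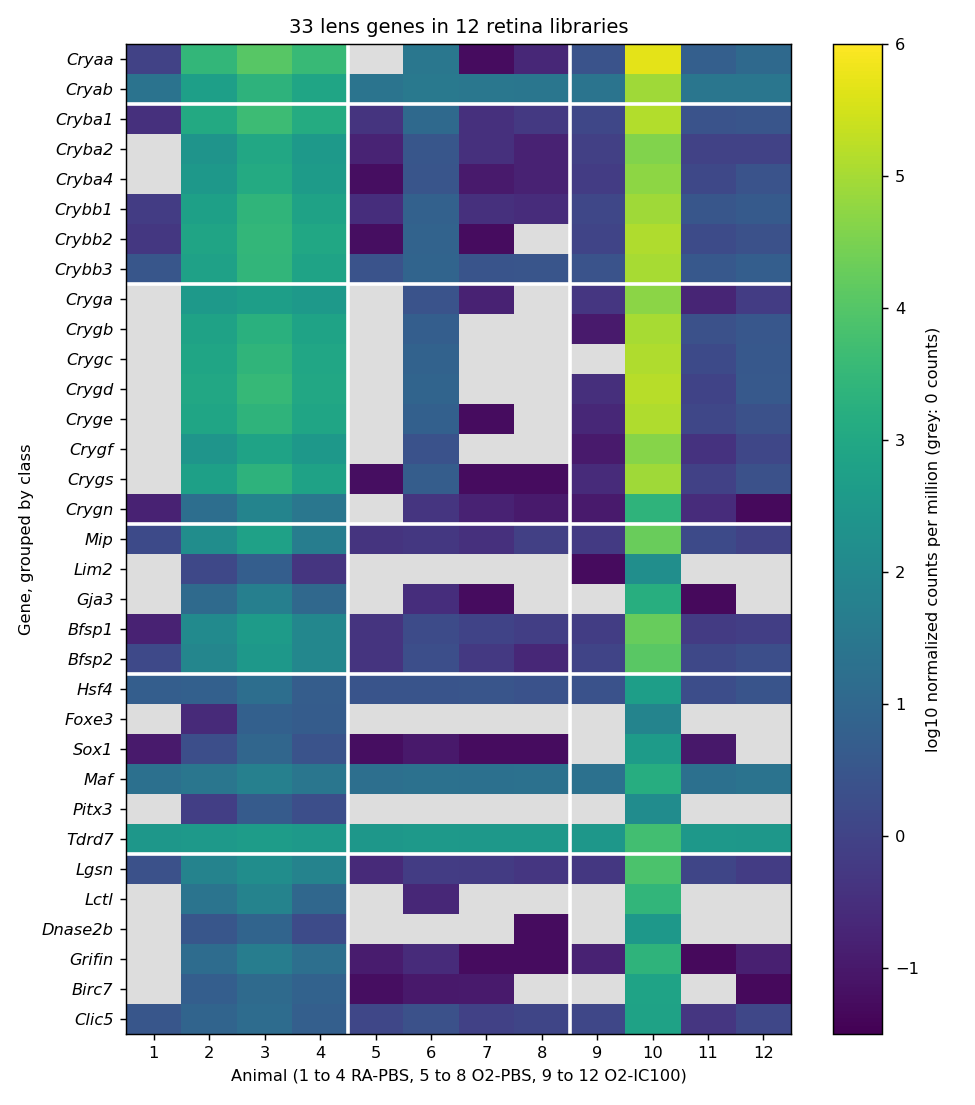
Level of each of the 33 lens genes (rows, grouped by class) in each of the 12 libraries (columns), as log10 normalized CPM, with grey where a gene had 0 counts. The column of animal 10 is the brightest in every row, followed by animal 3, and Tdrd7, Maf, Cryab, Crybb3 and Hsf4 are above 1 normalized CPM in every library.

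Cryaa (ENSMUSG00000024041), which encodes alphaA-crystallin, had the most counts of any member. Its level was 0.954, 2919, 11272 and 3586 normalized CPM in RA-PBS animals 1 to 4, then 0, 29.6, 0.0565 and 0.222 in O2-PBS animals 5 to 8, and 2.61, 490156, 6.10 and 11.2 in O2-IC100 animals 9 to 12. The RA-PBS and O2-PBS groups overlapped through animals 1 and 6, and animal 10 stood apart from its own group. Mean levels were 4444 ± 4810 in RA-PBS, 7.46 ± 14.7 in O2-PBS and 122544 ± 245074 in O2-IC100 (SD, n = 4), and without animal 10 the O2-IC100 mean was 6.64 ± 4.34 (SD, n = 3).

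The structural crystallins with the most counts were Crygd, Cryba1, Crygc, Cryge and Crybb2. Cryba1, which encodes the betaA3 and betaA1 crystallins, was at 0.337, 1105, 4502 and 1323 normalized CPM in RA-PBS, at 0.423, 11.3, 0.340 and 0.561 in O2-PBS and at 1.29, 140456, 2.65 and 2.99 in O2-IC100. Crybb2, a basic beta crystallin, was at 0.505, 774, 2979 and 950.1 in RA-PBS, at 0.0603, 7.56, 0.0565 and 0 in O2-PBS and at 1.07, 125364, 1.68 and 2.35 in O2-IC100. As for Cryaa, animals 10 and 3 stood first, while the lowest level was in animal 1 for Cryba1 and in animal 8 for Crybb2.

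The gamma crystallins, which pack most densely in the core of the lens, were at or near 0 in more libraries. Crygd was at 0, 981, 3358 and 1009 normalized CPM in RA-PBS, at 0, 8.43, 0 and 0 in O2-PBS and at 0.319, 155433, 1.01 and 3.81 in O2-IC100. Crygc was at 0, 818, 2587 and 852 in RA-PBS, at 0, 7.01, 0 and 0 in O2-PBS and at 0, 128914, 1.55 and 3.68 in O2-IC100. Cryge was at 0, 807, 2468 and 796 in RA-PBS, at 0, 6.32, 0.0565 and 0 in O2-PBS and at 0.213, 127679, 1.25 and 2.22 in O2-IC100. These 3 genes had no count in animal 1, where Cryaa had 17 counts. Levels of these gamma crystallins are uncertain, since reads were assigned by 31-base words and the transcripts share many: 57.5% of the words of Cryge, 53.8% of Cryga, 47.2% of Crygf, 37.3% of Crygd, 31.6% of Crygb and 25.8% of Crygc also occur in other genes. The 6 beta crystallins, Crygs and Crygn share 0% of theirs in the GENCODE M21 transcripts used for this. The counts were made on the GRCm39_104 transcripts, where sharing was not measured. Some beta crystallin counts are not whole numbers, such as 43.1 in animal 5 and 116.08 in animal 12 for Crybb3, so their levels are also uncertain.

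The makeup of the lens RNA was read from the lens-rich libraries. In counts, alpha crystallins made up 27.8, 30.4, 30.8 and 30.5% of the 33 genes in animals 2, 3, 4 and 10. Beta crystallins made up 29.3, 33.6, 30.9 and 28.7%, and gamma crystallins 36.0, 30.9, 33.1 and 36.8%, in the same order. Gamma crystallins were thus the largest class in animals 2, 4 and 10, and beta crystallins in animal 3. Divided by transcript length, the share of gamma crystallins became 46.5, 39.9, 42.8 and 46.9%, that of beta crystallins 31.1, 36.0, 33.1 and 29.9%, and that of alpha crystallins 19.9, 22, 22.2 and 21.5%. Per length, gamma crystallins were the largest class in all 4. The 5 genes of the fiber membrane and cytoskeleton took 2.97, 3.16, 1.72 and 2.76% of the counts.

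Among single members per length, Cryaa took 16.4 to 17.99% of the 33 genes in the lens-rich libraries, ahead of the other 32. Crygd took 10.3 to 11.7% and Cryba1 8.33 to 11.7%, and their order differed between libraries. Crybb2 took 6.09 to 6.64%. Cryab took 3.44 to 4.50%, so that its partner Cryaa was the main alpha crystallin of each.

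Relative to Cryaa, crystallins kept similar proportions across the lens-rich libraries. Per 1000 Cryaa counts, Crybb2 had 265, 264, 265 and 256 counts in animals 2, 3, 4 and 10, a 1.04-fold range, and Cryba4 had 106, 108, 113 and 106. The median range was 1.25-fold over the 15 other crystallins, and 14 of them stayed within 2-fold. The exception was Cryga, with 114, 45.95, 96.4 and 103 counts, lowest in animal 3, and Crygb, Crygc, Cryge and Crygf were also lowest there. The other 17 members had a median range of 2.11-fold and 7 of them stayed within 2-fold. Some of these also have counts in the lens-poor libraries, so their ranges do not describe lens RNA alone. Tdrd7 was at 332 normalized CPM in animals 2 and 4, against a lens-poor median of 303.

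Several members outside the crystallins departed from these proportions, and those named here were picked after their values were seen. Mip, the fiber water channel aquaporin 0, had 49.8, 55.4, 12.9 and 40.2 counts per 1000 Cryaa counts in animals 2, 3, 4 and 10. Lim2, another integral membrane protein of fibers, had 0.449, 0.473, 0.127 and 0.333, and Lctl, a klotho relative, 8.33, 6.24, 2.88 and 5.47. All 3 were lowest in animal 4, where Lim2 had 8.67 counts. Foxe3, a transcription factor of the lens epithelium, had 0.0827, 0.566, 1.37 and 0.156, and was highest in animal 4 on 93 counts and lowest in animal 2 on 5. Pitx3, which acts in lens development, had 0.265, 0.394, 0.543 and 0.291, with the same highest and lowest animals, the lowest on 16 counts. Grifin, a galectin-related fiber protein, stayed within a 1.15-fold range at 4.34 to 4.98, Sox1 within 1.26-fold and the beaded filament gene Bfsp2 within 1.24-fold. Gja3, grouped with Mip and Lim2 among the genes of the fiber membrane and cytoskeleton, had a range of 1.555-fold. Of the Mip words, 56.4% also occur in an antisense transcript, Gm26847, so its level is uncertain. The 4 libraries are 4 eyes with no replicate of any 1 lens, and the ranges carry no test.

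**Figure D3:**
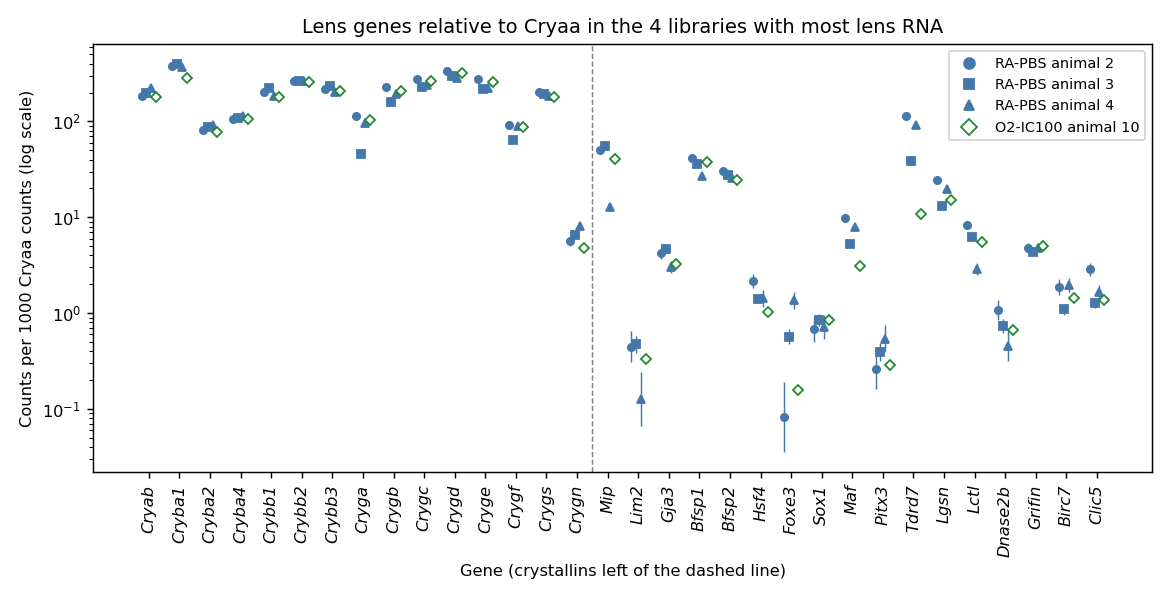
Counts of each lens gene per 1000 Cryaa counts (log scale) in animals 2, 3, 4 and 10, with 95% Wilson intervals as bars and crystallins left of the dashed line. Crystallins other than Cryga stay within 2-fold, while Foxe3 ranges 16.5-fold, Tdrd7 10.5-fold and Mip 4.30-fold. Tdrd7 has a median of 303 normalized CPM in the lens-poor libraries, so its range does not describe lens RNA alone.

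The lens-poor libraries show which members were measured in retina with little lens RNA. There, 7 of the 33 had a median of at least 1 normalized CPM, 11 had a median of 0.1 to 1 and 15 of less than 0.1, and 11 of these 15 had a median of 0. Foxe3, Pitx3 and Lctl had 0 counts in all 7. At least 3 counts in each of the 7 were found for 12 members, and 21 had 0 counts in at least 1.

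Tdrd7, a tudor domain protein of RNA granules, stood highest. It was at 291, 332, 435 and 332 normalized CPM in RA-PBS, at 301, 351, 313 and 321 in O2-PBS and at 303, 5287, 323 and 297 in O2-IC100. Outside animals 3 and 10 the libraries lay in a narrow band from 291 to 351, and in the lens-poor libraries Tdrd7 alone gave 4985 to 6730 counts. It made up most of their 33-gene share: without it the share fell to 0.00566 to 0.0121%.

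Cryab, the alphaB-crystallin gene, was at 23.1, 539, 2221 and 805 normalized CPM in RA-PBS, at 23.5, 34.6, 29.8 and 27.3 in O2-PBS and at 24.0, 87846, 28.2 and 27.0 in O2-IC100. Its lens-poor values ran from 23.1 to 29.8, on at least 390 counts each. Maf, the c-Maf transcription factor, was at 18.1, 28.5, 59.6 and 28.3 in RA-PBS, at 17.8, 20.3, 19.0 and 19.4 in O2-PBS and at 20.3, 1510, 19.0 and 22.6 in O2-IC100. Both genes were thus present in every library, and their highest lens-poor value was within 1.19-fold of the median. Of the words of Cryab, 15.99% are shared with its neighbour Hspb2.

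Crybb3, a beta crystallin, was at 3.31, 632, 2659 and 733 normalized CPM in RA-PBS, at 2.60, 8.06, 2.74 and 2.95 in O2-PBS and at 2.56, 101170, 3.60 and 5.69 in O2-IC100. It was the only beta or gamma crystallin with a lens-poor median over 1 (2.95), on 43.1 to 116 counts a library. Hsf4, the heat shock factor of the lens, was at 5.33, 6.33, 15.99 and 5.11 in RA-PBS, at 2.89, 2.76, 3.05 and 2.38 in O2-PBS and at 2.45, 502, 1.92 and 2.75 in O2-IC100. All 4 RA-PBS libraries stood above all 4 O2-PBS libraries for Hsf4. Animals 2, 3 and 4 of them are lens-rich, which leaves animal 1 as the only lens-poor RA-PBS library. The share of all genes with such a separation was not counted, so it is a description only.

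Clic5, a chloride intracellular channel protein, was at 3.31, 8.38, 14.4 and 5.91 normalized CPM in RA-PBS, at 1.23, 2.33, 0.912 and 1.17 in O2-PBS and at 1.23, 669.7, 0.483 and 1.23 in O2-IC100. Again the RA-PBS libraries stood above the O2-PBS ones without overlap, with animals 2, 3 and 4 lens-rich and animal 1 the only lens-poor one. As for Hsf4, this is a description only. Bfsp2, a beaded filament protein of fibers, was at 1.46, 89.8, 310 and 91.9 in RA-PBS, at 0.422, 1.98, 0.565 and 0.222 in O2-PBS and at 1.12, 12137, 1.34 and 2.01 in O2-IC100. Its lens-poor counts were low, 4 to 41 a library, and its RA-PBS value in animal 1 was below that of O2-PBS animal 6.

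**Figure D4:**
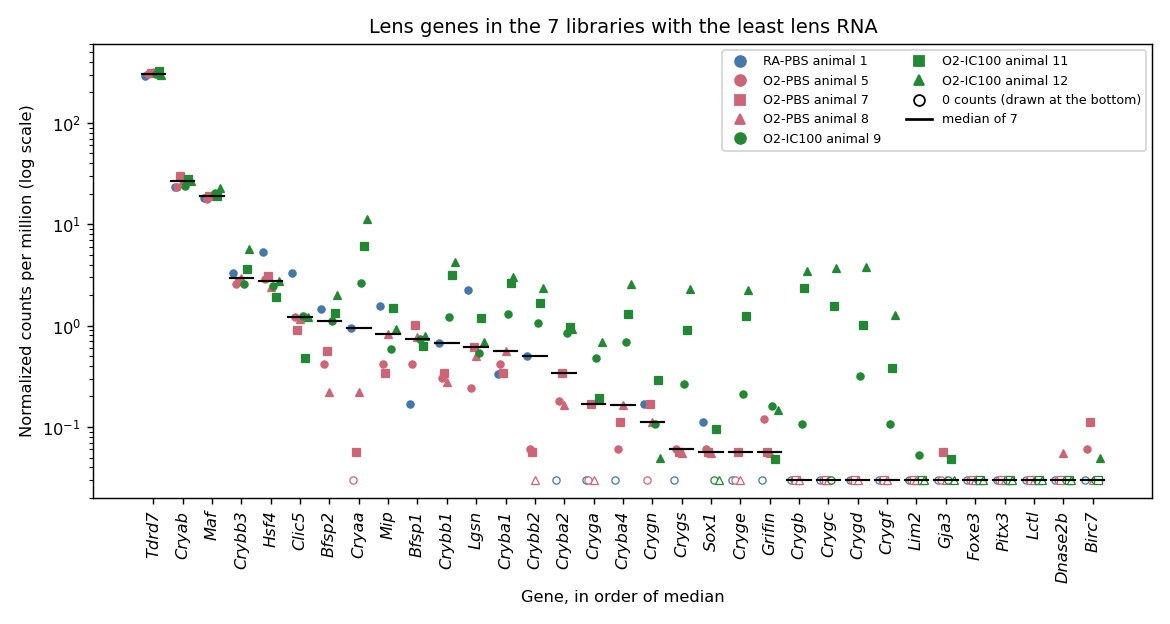
Normalized CPM (log scale) of the 33 lens genes in the 7 lens-poor libraries, coloured by group, with the median as a bar and values of 0 drawn open at the bottom. Tdrd7 (median 303), Cryab (27.0) and Maf (19.0) lie in tight bands, while among the crystallins only Cryab, Cryba1, Crybb1 and Crybb3 have counts in all 7.

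Even the lens-poor libraries held traces of the other 14 crystallins (without Cryab and Crybb3). They summed to 47 counts in RA-PBS animal 1, to 18, 30 and 28 in O2-PBS animals 5, 7 and 8, and to 175, 495 and 853 in O2-IC100 animals 9, 11 and 12. Animal 6 had 1905 counts. Cryaa made up 29.8% of these 14 in animal 6, 28.0% in animal 9, 25.7% in animal 11 and 26.9% in animal 12, against 28.1 to 30.3% in the lens-rich libraries. It made up 36.2% in animal 1, 0% in animal 5, 3.33% in animal 7 and 14.2% in animal 8, each on fewer than 50 counts. The 3 O2-IC100 libraries thus held more crystallin counts than 3 of the 4 O2-PBS libraries and fewer than the remaining one.

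The counts were then set against the Cryaa count of the same library. At the ratio to Cryaa of animal 10, the Cryaa counts of the 7 lens-poor libraries would carry 109 counts of Crybb2 where 114 were found (95.8%), and 112 of Crygc where 107 were found (105%). Crygs stood at 103% on the same scale. The same ratio gave 2.24% of the Cryab counts, 19.9% of the Crybb3 counts, 7.72% of the Bfsp2 counts, 0.334% of the Clic5 counts, 0.115% of the Hsf4 counts, 0.0518% of the Maf counts and 0.0115% of the Tdrd7 counts. Of the 29 members other than Cryaa with any count there, 8 stood under 10%, 11 from 10 to 50% and 10 over 50%. Animal 12 held 229 of the 427 Cryaa counts summed here. Without it, the percentages were 1.24 for Cryab, 12.5 for Crybb3, 5.11 for Bfsp2, 0.181 for Clic5, 0.0623 for Hsf4, 0.0294 for Maf and 0.0063 for Tdrd7, and 76.7 for Crybb2, 162 for Crygc and 131 for Crygs, and 12 of 29 members stood under 10%, 8 from 10 to 50% and 9 over 50%. By single library the percentage ran from 0 to 7.45% for Cryab and from 0 to 40.7% for Crybb3. Mip stood at 14.7% (117 counts in all) and Lgsn, the glutamine synthetase relative lengsin, at 5.77% (113 counts), or at 8.12 and 3.06% without animal 12. For both, animal 1 had the highest normalized level of the 7, at 1.57 for Mip and 2.24 for Lgsn.

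The comparisons between groups ask what oxygen exposure and IC100 changed in the retina. Genes were tested with edgeR's quasi-likelihood F test in 1 fit of the 12 libraries and called where the fold reached 1.5, the unadjusted p was under 0.05 and the p adjusted by the Benjamini-Hochberg method was under 0.1. Of the 33 members 31 passed the filter on low counts, Lim2 and Foxe3 being left out. None was called in any of the 3 comparisons by edgeR. In O2-PBS versus RA-PBS 0.782% of the 16489 genes tested were called higher and 0.0243% lower, and in each of the other 2 comparisons 0% were called in either direction. The fitted level of all 31 was lower in O2-PBS. Their log2 fold changes had a median of -8.01, and those of all genes one of -0.0071, and 17 had an unadjusted p-value under 0.05, as had 7.12% of all genes. In O2-IC100 versus O2-PBS the median was 12.59 against 0.0037 over all genes, and all 31 had an unadjusted p-value under 0.05, as had 16.9% of all genes. In O2-IC100 versus RA-PBS it was 4.67 against 0.0182. There 4 of 31 (12.9%, Hsf4, Maf, Tdrd7 and Clic5) had an unadjusted p-value under 0.05, as had 13.2% of all genes, so that the members were at the background share. Animals 2, 3, 4 and 10 were named as lens-rich in the choice of these genes. The larger shares in O2-PBS versus RA-PBS and O2-IC100 versus O2-PBS follow largely from that choice. Without animal 10, the same test gave 0 of 31 an unadjusted p-value under 0.05 in O2-IC100 versus O2-PBS. DESeq2 gave a p-value for 1 member, Foxe3, which it called lower in O2-PBS than in RA-PBS (0.247% of genes called lower) and higher in O2-IC100 than in O2-PBS (0.115% called higher). Foxe3 had 0 counts in all O2-PBS libraries, so no fold is given. In O2-IC100 it had 607 counts in animal 10 and 0 in the other 3, so the higher call rests on animal 10.

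Cryaa had a log2 fold change of -9.22 ± 4.24 (SE) in O2-PBS versus RA-PBS, of 14 ± 5.00 in O2-IC100 versus O2-PBS and of 4.79 ± 3.49 in O2-IC100 versus RA-PBS, with adjusted p-values of 0.707, 0.287 and 0.496. For Tdrd7 the same fit gave -0.11 ± 0.827, 2.27 ± 0.867 and 2.16 ± 0.863, with adjusted p-values of 1.00, 0.287 and 0.374. Each of these positive folds of O2-IC100 fell below 0 without animal 10.

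Leaving out animal 10 changed the calls. In O2-PBS versus RA-PBS, 30 of the 31 tested members were then called lower, beside 2.18% of the 16688 genes tested. The exception was Tdrd7, with a log2 fold change of -0.11 ± 0.111 and an adjusted p-value of 0.607. Cryaa was at -9.19 ± 2.70 (adjusted p = 0.0808), Crybb3 at -7.93 ± 1.67 (0.0252), Bfsp2 at -7.21 ± 1.48 (0.0225), Cryab at -4.95 ± 1.09 (0.0292), Clic5 at -2.49 ± 0.441 (0.00394), Hsf4 at -1.56 ± 0.331 (0.0117) and Maf at -0.81 ± 0.270 (0.0908). RA-PBS animals 2, 3 and 4, 3 of the 4 controls of this comparison, are lens-rich, and group and lens RNA cannot be told apart in it. They were named as lens-rich on these same genes, so the number called follows largely from that choice and is a description only. Crygn, Gja3, Sox1, Pitx3, Lctl, Dnase2b, Grifin and Birc7 did not pass the filter on low counts without the lens-rich libraries. In the fit of RA-PBS and O2-PBS alone, with animal 10 outside, 12 of 23 tested members were called lower (1.84% of all genes), under the same limit.

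In O2-IC100 versus O2-PBS without animal 10, 0 of 31 members were called by edgeR and 0 had an unadjusted p-value under 0.05, beside 0.216% of genes called higher and 0.731% lower. Members that did not pass the filter without the lens-rich libraries had few or no counts in this comparison, and Pitx3 had 0 in every library compared. The lack of calls therefore says little about them. In this fit Cryaa was at -0.17 ± 2.23, Cryab at -0.11 ± 1.03 and Crybb3 at -0.04 ± 1.58. In O2-IC100 versus RA-PBS without animal 10, 6 of 31 were called lower (0.617% of genes): Hsf4, Sox1, Lgsn, Dnase2b, Birc7 and Clic5. Clic5 had a log2 fold change of -3.01 ± 0.510 (adjusted p = 0.0227) and Hsf4 of -1.77 ± 0.369 (adjusted p = 0.0509) there, and Cryaa of -9.36 ± 3.12 (adjusted p = 0.204). RA-PBS animals 2, 3 and 4 are lens-rich here too, so group and lens RNA cannot be told apart and these calls are a description only. Sox1, Dnase2b and Birc7 had 0 to 2 counts in each of animals 9, 11 and 12.

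**Figure D5:**
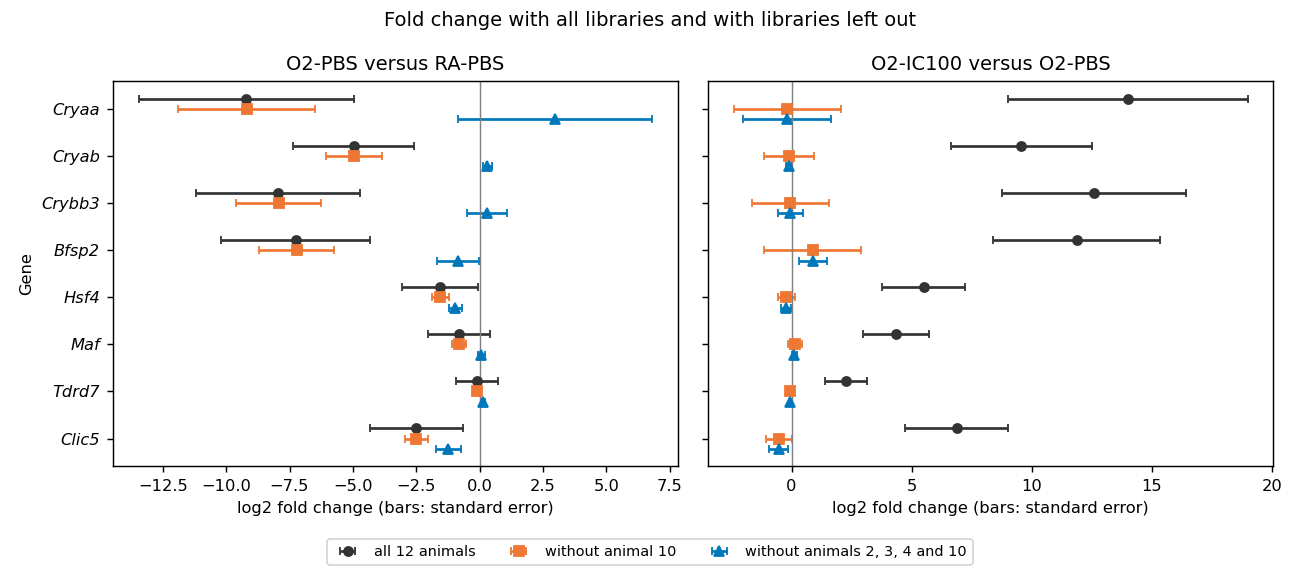
log2 fold change with its standard error for Cryaa and the 7 members with a lens-poor median of at least 1 normalized CPM, in O2-PBS versus RA-PBS (left) and O2-IC100 versus O2-PBS (right), from the fit of all 12 animals, without animal 10, and without animals 2, 3, 4 and 10. The changes of O2-IC100 lie between -0.52 and 0.89 in both fits without animal 10. In the left panel, Cryaa, Cryab, Crybb3, Maf and Tdrd7 move from below to above 0 once animals 2, 3 and 4 are also left out. RA-PBS is then animal 1 alone, and the value of Cryaa rests on O2-PBS animal 6.

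Without all 4 lens-rich libraries, 23 members passed the filter and RA-PBS was left with animal 1 alone, whose spread was taken from the other groups. These libraries were left out for their lens RNA, so the fit describes retina with little of it, and the values of the members in it follow that choice. In O2-IC100 versus O2-PBS (n = 3 and 4), 0 of 23 members were called by edgeR and 0 had an unadjusted p-value under 0.05, beside 1.1% of 17504 genes called higher and 3.34% lower. Cryab differed by -0.11 ± 0.117 (edgeR, adjusted p = 0.516), Tdrd7 by -0.05 ± 0.0641 (0.616), Maf by 0.12 ± 0.0920 (0.355), Hsf4 by -0.21 ± 0.206 (0.490), Clic5 by -0.52 ± 0.396 (0.369), Crybb3 by -0.04 ± 0.513 (0.963) and Bfsp2 by 0.89 ± 0.590 (0.312) on the log2 scale. The SE was at most 0.117 for Cryab, Tdrd7 and Maf and at least 0.513 for Crybb3 and Bfsp2.

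Against RA-PBS animal 1, the same fit called Bfsp1 higher in O2-PBS and Mip, Hsf4, Lgsn and Clic5 lower, while 16.6% of all genes were called higher and 7.71% lower. In O2-IC100 versus animal 1 it called Hsf4, Lgsn and Clic5 lower, with 5.23% of all genes called lower. These calls set members against 1 library, left by a choice on the lens genes and with fewer genes detected than any other, and are given as a description only. Bfsp1 rested on 3 counts in animal 1 against 7, 31, 18 and 14 in O2-PBS, the highest in animal 6. On the log2 scale Hsf4 was at -0.95 ± 0.271 in O2-PBS and at -1.17 ± 0.283 in O2-IC100, and Cryab at 0.31 ± 0.176 and 0.20 ± 0.181.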

How the data were processed

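RNA of 12 retinas, 1 per mouse, was sequenced with paired-end reads after polyA selection. The authors pseudoaligned reads to the GRCm39_104 transcriptome with Kallisto and summarised genes with tximport, so that the deposited values are expected counts of each gene with no normalization. The submitters' processing notes name kallisto and DESeq2, with versions not given in the sources used here. The study tested with DESeq2, which serves here as an alternative. All 12 sample columns were used.

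The 33 members and the gene lists were chosen with earlier results of these data known. Symbols were matched by Ensembl identifier (35374 of 36131 genes). Expected counts were rounded and fitted in R 4.3.3 with edgeR 4.0.16 (TMM, filterByExpr leaving 16489 genes, robust quasi-likelihood F test, two-sided, 3 groups, no covariate). DESeq2 1.42.0, 3 other scalings, no filter, fits of 2 groups, empirical Bayes that was not robust, each animal left out, and all 4 lens-rich libraries left out were alternatives. Values were given in every sample for the 6 members with the most counts, for those with a median of at least 1 normalized CPM in the lens-poor libraries and for any member called in the fit of all animals, which gave none. Genes named beside these were chosen after their values were seen. P-values set the difference between groups against the spread between libraries, 1 from each mouse. Shares have Wilson intervals. The word sharing was computed with 31-base words from GENCODE M21 transcripts, and the longest coding transcript gave the length, both matched by identifier because that annotation is of GRCm38. Promoters are RefSeq sequences of GRCm38.p6. The test was checked on simulated data. Python 3.11.15, pandas 2.3.3 and matplotlib 3.10.9 were used.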

Additional observations from a re-analysis of the deposited data

Results flagged for a closer look

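In groups of 4, a library whose gap to the nearest other exceeded Dixon's 95% critical share of the group's range was looked for in 42 sets of values, the 33-gene share and the 13 members with values in every sample, in each of the 3 groups. Chance alone gives about 1 in 20 such sets. Animals 10 and 3 were known from these same genes to be high when the genes were chosen. Animal 6 was already left out of the lens-free set there. The values of these animals are therefore a description and are not read against that rate. It was met 22 times, 14 times by O2-IC100 animal 10, 7 times by O2-PBS animal 6 and 1 time by RA-PBS animal 3, and these values are not independent.

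O2-IC100 animal 10 stood above the other 3 in its 33-gene share (61.4%) and, in normalized CPM, in Cryaa (490156), Crygd (155433), Cryba1 (140456), Crygc (128914), Cryge (127679), Crybb2 (125364), Crybb3 (101170), Cryab (87846), Bfsp2 (12137), Tdrd7 (5287), Maf (1510), Clic5 (670) and Hsf4 (502). O2-PBS animal 6 stood above the other 3 in Cryaa (29.6), Cryba1 (11.3), Crygd (8.43), Crybb3 (8.06), Crybb2 (7.56), Crygc (7.01) and Cryge (6.32), and did not in Cryab, Maf, Tdrd7, Hsf4, Clic5 or Bfsp2. RA-PBS animal 3 stood above the others in Hsf4 (16).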

How the results depend on the processing

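Across 20 alternative fits, 112 of 120 counts of called members stayed at 0. Members called lower in O2-PBS than in RA-PBS numbered 1 by DESeq2, 12 in the fit of only these groups and 4 without animals 2, 3, 4 and 10, where 1 was called higher, and 0 to 30 with 1 animal left out, the 30 without animal 10. Those higher in O2-IC100 than in O2-PBS numbered 1 by DESeq2. Those lower in O2-IC100 than in RA-PBS numbered 3 without animals 2, 3, 4 and 10, and 0 to 6 with 1 animal left out. The share of animal 10 was 59.0% for the 16 crystallins alone. The cause of these differences was not tested, and fits without a lens-rich library hold fewer samples. RA-PBS animals 2, 3 and 4 were named as lens-rich on these genes, so members called lower than RA-PBS are a description only. Library size alone, without TMM, moved the median log2 fold change of all genes by over 0.1, to -0.25 in O2-IC100 versus O2-PBS and -0.18 in O2-IC100 versus RA-PBS, and left all 31 members higher. The members' median fell from 12.59 to 10.81 and from 4.67 to 2.94, and those with an unadjusted p-value under 0.05 from 31 to 30 and from 4 to 0, while in O2-PBS versus RA-PBS they went from 17 to 25. The percentages of member counts at the Cryaa ratio of animal 10 were also computed without animal 12, chosen after seeing the data, and 10 of the 12 described moved by over 1.5 times.

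Of 456 fold changes of Cryaa and the 7 members with a lens-poor median of at least 1, 28 changed direction. Without animals 2, 3, 4 and 10 these were, in O2-PBS versus RA-PBS, Cryaa 2.98, Cryab 0.31, Crybb3 0.30, Maf 0.0692 and Tdrd7 0.13. In O2-IC100 versus O2-PBS they were Cryaa -0.18, Cryab -0.11, Crybb3 -0.0428, Hsf4 -0.21, Tdrd7 -0.0497 and Clic5 -0.52, and in O2-IC100 versus RA-PBS, Hsf4 -1.17 and Clic5 -1.76. RA-PBS is animal 1 alone in that fit. Cryaa had 17 counts in animal 1 and 0, 567, 1 and 4 in O2-PBS animals 5 to 8, so its value of 2.98 rests on animal 6. With 1 animal left out, O2-PBS versus RA-PBS ran from -0.19 to 0.0068 in Tdrd7, above 0 without animal 3. In O2-IC100 versus O2-PBS, with the low end without animal 10, the range was -0.17 to 20.2 in Cryaa, -0.11 to 9.99 in Cryab, -0.0419 to 13.2 in Crybb3, -0.21 to 5.92 in Hsf4, -0.0478 to 2.62 in Tdrd7 and -0.52 to 7.30 in Clic5. In O2-IC100 versus RA-PBS it was -9.36 to 5.85 in Cryaa, -5.07 to 5.62 in Cryab, -7.97 to 5.82 in Crybb3, -6.34 to 5.67 in Bfsp2, -1.77 to 4.53 in Hsf4, -0.69 to 4.00 in Maf, -0.16 to 2.50 in Tdrd7 and -3.01 to 4.86 in Clic5. No paired analysis was possible because each animal number belongs to 1 group only. Depth limits the members under 3 counts, 0.123 to 0.201 CPM.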
